A study of Mus musculus with 335 samples.

Results

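Sterol and fatty acid synthesis genes were followed across 335 RNA libraries of mouse mammary tumours, their metastases, normal tissues and cultured tumour lines. The 31 genes were chosen by symbol, and 30 of them were rows of the deposited table of 20188 genes. Sc4mol was not analysed here, and Hmgcs1 was listed at 0 in every library, so 29 genes carried values. They were 5 genes of the mevalonate pathway, 10 of the steps to cholesterol, 4 regulators and carriers, and 10 of fatty acid synthesis and desaturation. The libraries fell into 61 groups and 281 animals or cultures, because several libraries of the same tissue of an animal were averaged.

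The tumours came from transgenic mice or from tumour lines injected into mice, and the labels list no treatment for any sample. In the transgenic mice, polyoma middle T (MMTV-PyMT) was carried on the FVB, BL6, BL10, CAST and MOLF backgrounds, Myc (MMTV-Myc) and Neu (MMTV-Neu) on FVB, and SV40 T antigen in C3Tag mice. The MMTV promoter is used because it drives a transgene mainly in mammary epithelium. C3Tag was represented by 3 tumours whose strain entries read C3Tag, FVB and FVG. One PyMT FVB tumour library carried a MOLF strain entry and was grouped by its title. The BL6 tumours include 2 of 6 titled BL6N, and the BL10 tumours 5 of 6 titled BL10J, and they were pooled by their strain entry. A pair of PyMT MOLF tumours and a Met1 tumour have lung metastasis in their titles and were grouped by their source entry, which names a primary tumour.

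The injected lines were 4T1, 4T07, 67NR, D2A1, EMT6, F311 and TSAE1 in BALB mice, 6DT1 (Myc), Mvt1 (Myc and VEGF), Met1 (PyMT) and HRM1 (Pik3ca) in FVB mice, E0771 in BL6 mice, R3T in 129S1J mice and M6 (SV40 T antigen). M6 hosts were labelled REAR for mammary injection and FVB for intracardiac injection, and cultured M6 cells were labelled BALB. Each line is a single cultured population, so its tumours were not independent transformation events. The labels of 4T1, 4T07, 67NR, D2A1, E0771, EMT6, F311, R3T and TSAE1 give the oncogenic driver as unknown. Lung metastases were compared with primary tumours of the same animals in 10 models, with 5 to 12 animals each. Neu on FVB had 2 such animals and was left out of that comparison. Normal lung and liver came from FVB mice without a tumour, although the titles of the healthy liver libraries name an FVB by PyMT cross.

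Cholesterol is built from acetyl units through mevalonate and isoprenoid phosphates to squalene, which is closed into a ring by lanosterol synthase and then trimmed and rearranged in the endoplasmic reticulum. Srebf2 and Srebf1 encode the membrane-bound factors SREBP2 and SREBP1, which are released to the nucleus when sterols are low, and in the SREBP1c form also when insulin is high. SREBP2 mainly drives the sterol genes, and SREBP1 mainly the genes of fatty acid synthesis. Lactating mammary gland and liver are tissues known for making large amounts of fatty acid.

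The promoters of these genes are shown because the sterol genes moved together below. SREBP is known to act beside the factor NF-Y, which binds CCAAT. RefSeq promoters (GRCm38.p6) were matched for 23 of the 31 genes, with 28 promoters. CCAAT on either strand was present in the 250 bases before the start in 20 of the 28 promoters (71.4%), against 33.9% of all 32851 mouse promoters. GGGCGG, the letters of an Sp1 box, was also in 20 of the 28 (71.4%), against 32.7% of all promoters. TCACNCCAC, 1 spelling of a sterol response element, was in 1 of the 28 (3.57%), against 1.05% of all promoters, and that promoter was the one of Hmgcs1. Each motif was searched on both strands, overlaps between motifs were allowed, and a match is only a match of letters. The 120 bases before the start are printed for 6 sterol genes that were higher in metastases over 10 models and for Thrsp. The 6 sterol genes were those with the smallest p that had 1 matched promoter and a CCAAT box in these bases. A box in each of these 6 was thus a condition of printing. Thrsp had the widest gap between transgenic and allograft tumours. Capitals mark CCAAT or its reverse, ATTGG.
Nsdhl (chrX:72918401-72918520, + strand): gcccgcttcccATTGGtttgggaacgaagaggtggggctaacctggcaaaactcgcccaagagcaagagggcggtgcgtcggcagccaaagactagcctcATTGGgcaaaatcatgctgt
Cyp51 (chr5:4104698-4104817, - strand): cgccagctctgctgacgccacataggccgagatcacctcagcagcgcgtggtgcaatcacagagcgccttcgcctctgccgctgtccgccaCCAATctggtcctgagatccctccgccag
Sc5d (chr9:42264301-42264420, - strand): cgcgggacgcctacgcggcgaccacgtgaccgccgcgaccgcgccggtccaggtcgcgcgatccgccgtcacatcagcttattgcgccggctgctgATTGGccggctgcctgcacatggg
Ebp (chrX:8193513-8193632, - strand): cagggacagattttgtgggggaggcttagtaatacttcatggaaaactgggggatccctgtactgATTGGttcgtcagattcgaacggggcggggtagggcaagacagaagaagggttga
Mvd (chr8:122443423-122443542, - strand): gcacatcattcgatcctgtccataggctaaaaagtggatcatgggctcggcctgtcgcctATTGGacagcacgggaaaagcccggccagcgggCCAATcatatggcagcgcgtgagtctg
Idi1 (chr13:8885486-8885605, + strand): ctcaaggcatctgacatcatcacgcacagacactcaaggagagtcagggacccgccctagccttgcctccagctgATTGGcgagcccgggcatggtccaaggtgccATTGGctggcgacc
Thrsp (chr7:97417551-97417670, - strand): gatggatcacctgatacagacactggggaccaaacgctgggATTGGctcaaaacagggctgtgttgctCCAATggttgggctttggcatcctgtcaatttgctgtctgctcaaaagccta
Of these stretches, Nsdhl, Mvd, Idi1 and Thrsp held 2 such boxes each, and Cyp51, Sc5d and Ebp held 1 each.

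Depth, read from the whole-read steps of the deposited values, ran from 8106344 to 54906212 reads, with a median of 27175852. All 1223 pairs of libraries within a group differed by more than sampling noise. Tumour tissue is a mixture, and with bulk RNA fewer cells of a type and less RNA per cell cannot be told apart. The lung metastases of the 10 models had a summed level of 7 alveolar type 2 markers between 7.14 and 78527 RPKM, with a median of 2155, against 0.126 to 688 RPKM in their primary tumours, with a median of 6.45. The sum of 8 adipocyte markers ran from 4.41 to 102 RPKM in the metastases and from 7.22 to 1606 RPKM in the primary tumours. The sum of 6 milk protein genes ran from 0.123 to 44969 RPKM in metastases and from 0.329 to 28026 RPKM in primary tumours. The sum of 5 fibroblast markers had a median of 49.9 RPKM in metastases and 218 RPKM in primary tumours, and that of 4 macrophage markers 53.4 RPKM in metastases and 36.3 RPKM in primary tumours. The lung metastasis of PyMT FVB replicate 6 stood apart, since its lung share, estimated from 14 lung markers against healthy lung, reached the 95% ceiling of the estimate. The deposited values name this library by another animal number than its title does, and the title was followed for pairing. PyMT BL6 tumour replicate 6 carried the most alveolar type 2 RNA of the primary tumours. The library labelled a lung metastasis after intracardiac M6 injection held almost no surfactant RNA (Sftpc 0.0218 RPKM) and much albumin RNA (Alb 3125 RPKM). The tail vein Met1 library had the reverse, with Sftpc at 71546 RPKM and the division marker Mki67 at 1.21 RPKM, and neither library enters a test. The tumours of 67NR nearly lacked the keratin Krt8, with 0.245 to 1.47 RPKM.

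Levels of the 29 genes are given per length of transcript, so that genes can be set side by side. In the mevalonate pathway, Fdps, the farnesyl diphosphate synthase, had the highest median over the 61 group means at 38.8 RPKM, and Mvk, the mevalonate kinase, the lowest at 3.94 RPKM. Between them lay the isomerase gene Idi1 at 20.9 RPKM, the phosphomevalonate kinase gene Pmvk at 17.4 RPKM and the decarboxylase gene Mvd at 5.06 RPKM. On the way to cholesterol, Ebp, the sterol isomerase, was highest at 27.9 RPKM, and Tm7sf2, a sterol reductase of the ring-trimming steps, lowest at 2.31 RPKM.

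The fatty acid genes spanned a wider range of levels. Scd1 and Scd2, desaturases that place a double bond in saturated fatty acids, had medians of 108 and 77.4 RPKM, and Acaca, the acetyl-CoA carboxylase, 5.41 RPKM. The group means of Thrsp, Scd1, Scd2, Fads1 and Fads2 had a larger SD between groups on the log2 scale (1.19 to 3.04) than those of any sterol gene (0.37 to 0.94), and those of the other 5 fatty acid genes did not (0.47 to 0.75). Thrsp, the lipogenic nuclear factor Spot 14, averaged 804 RPKM in PyMT MOLF lung metastases and 0.0614 RPKM in 4T1 cells. Fads1, the delta-5 desaturase of polyunsaturated fatty acids, averaged 106 RPKM in liver beside a 6DT1 metastasis, in 1 sample, and 0.0627 RPKM in 4T07 cells. Among sterol genes the widest ratio between group means was 27.2, for Tm7sf2, with 31.9 RPKM in the same liver sample and 1.17 RPKM in Mvt1 lung metastases. Liver beside metastases held the highest group mean of Mvk, Idi1, Fdps, Fdft1, Lss, Cyp51, Sc5d, Insig1 and Acss2 as well, each in that 1 sample.

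**Figure D1:**
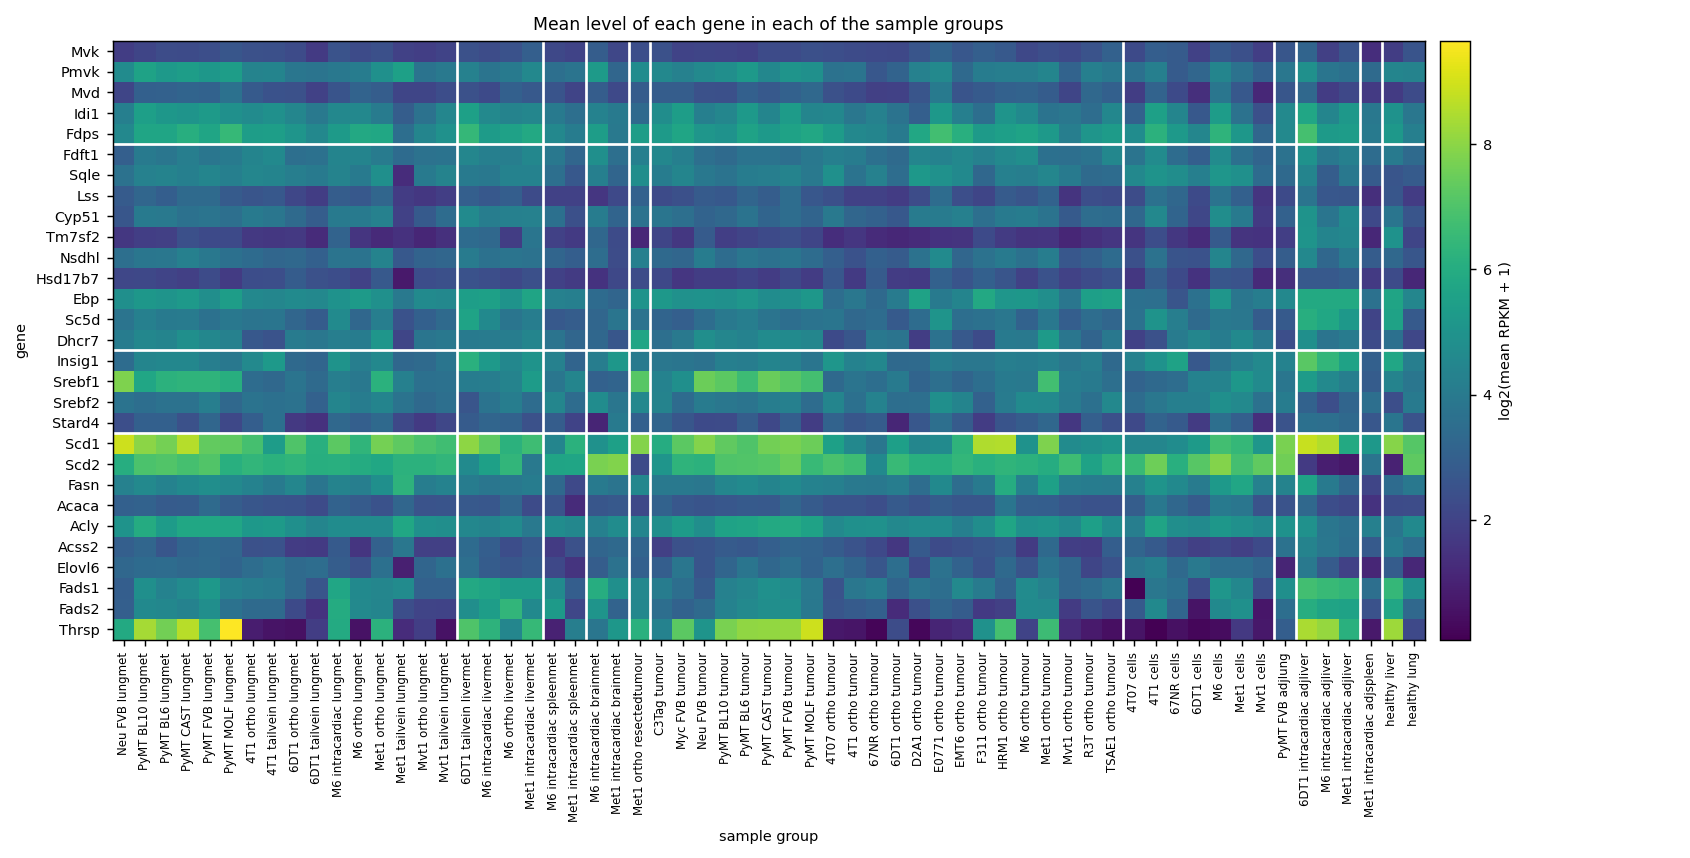
Mean level of each gene (rows) in each of the 61 sample groups (columns) as log2(mean RPKM + 1), with white lines between gene roles and between kinds of tissue. Scd1, Scd2 and Fdps are high in most groups, Thrsp is high in PyMT tumours and liver and low in most allograft tumours and all cultures, and Fads1 is near 0 in 4T07 cells.

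The first comparison asked whether lung metastases differ from the primary tumours of the same animals. Over the 10 models, most sterol synthesis genes were higher in lung metastases, and both SREBP genes were lower. For the sterol genes that passed, RPKM + 1 was 1.16 to 1.502 times that of primary tumours. The level of a model is the mean of log2(RPKM + 1) over its animals, turned back into RPKM. Fdps rose over the 10 models, to a mean of 49.8 ± 17.6 RPKM in metastases, against 33.5 ± 13.2 RPKM in primary tumours (SD, n = 10 models). Its mean difference was above 0 in all 10 models and passed the test within 3 of them. Srebf1 fell over the 10 models, to 42.0 ± 27.0 RPKM in metastases, against 80.1 ± 61.6 RPKM in primary tumours. Its mean difference was below 0 in all 10 models and passed within 2 of them. The fatty acid synthase gene Fasn averaged 20.7 RPKM on both sides.

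Of the 29 genes tested over the 10 models, 14 rose and 3 fell at an adjusted p under 0.05 by limma with Benjamini-Hochberg adjustment over all genes. Of all 11324 genes tested, 31.1% passed, 11.6% higher and 19.5% lower. The median difference was 0.17 over the 29 genes and -0.04 over all genes. By role, 12 of the 15 sterol genes rose and none fell, where the 3 that did not pass were Mvk, Tm7sf2 and Dhcr7. Of the 4 regulators and carriers, 1 rose and 2 fell. Of the 10 fatty acid genes, Scd1 rose, Scd2 fell and 8 did not pass.

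Among mevalonate genes, Fdps differed by 0.59 ± 0.09 (SE, log2, adjusted p = 0.000621 by limma) and was higher in 52 of 68 animal pairs. Its lowest, median and highest levels were 33.8, 38.9 and 59.6 RPKM in 4T1 metastases, against 12.1, 19.5 and 36.9 RPKM in 4T1 tumours. In PyMT FVB mice these were 14.2, 48.9 and 88.2 RPKM in metastases, against 14.6, 48.8 and 83.1 RPKM in tumours. The 4T1 groups overlapped only at their edge, whereas the PyMT FVB groups covered the same range. Pmvk differed by 0.43 ± 0.09 (adjusted p = 0.004 by limma), with higher means in 8 of 10 models. Idi1 and Mvd also rose.

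Among the later steps, Nsdhl, a sterol dehydrogenase that removes a methyl group of the ring, differed by 0.36 ± 0.08 (adjusted p = 0.00525 by limma) and was higher in 54 of 68 pairs. Cyp51, the lanosterol demethylase, differed by 0.42 ± 0.09 (adjusted p = 0.00584 by limma), with 12.4 ± 3.5 RPKM in metastases and 9.09 ± 3.29 RPKM in primary tumours. Sc5d, the sterol desaturase near the end of the pathway, differed by 0.22 ± 0.05 (adjusted p = 0.00731 by limma). The other genes of this stretch that rose were Fdft1 (squalene synthase), Sqle (squalene epoxidase), Lss (lanosterol synthase), Hsd17b7 (a sterol ketone reductase) and Ebp.

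Among regulators and carriers, Stard4, a cytosolic cholesterol carrier, rose over the 10 models, to 5.67 ± 2.52 RPKM in metastases, against 4.32 ± 2.23 RPKM in primary tumours (log2 difference 0.35 ± 0.06, adjusted p = 0.0013 by limma). Its mean difference was above 0 in all 10 models and passed within 1 of them. Srebf1 differed by -0.69 ± 0.13 (adjusted p = 0.00275 by limma) and was lower in 59 of 68 pairs. Srebf2 fell too. Insig1, which holds the SREBP escort in the endoplasmic reticulum, did not pass, with 17.1 ± 4.95 RPKM in metastases and 15.5 ± 3.15 RPKM in primary tumours.

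Srebf1 separated the models by level. In PyMT BL10 mice its lowest, median and highest levels were 17.2, 50.9 and 105 RPKM in metastases, against 93.04, 147 and 198 RPKM in primary tumours. In PyMT CAST mice they were 45.8, 69.2 and 152 RPKM in metastases, against 132, 182 and 210.3 RPKM in primary tumours. In M6 mice they were 10.8, 13.3 and 19.6 RPKM in metastases, against 11.5, 14.6 and 18.7 RPKM in primary tumours. The BL10 and CAST metastases lay mostly below the tumours, and the M6 groups overlapped throughout. In Met1, whose primary tumours averaged 106 RPKM, the mean log2 difference was -0.54, lower in 4 of 6 pairs, and in Mvt1 it was -0.52, lower in 6 of 6. In the 2 Neu animals Srebf1 held 313 and 132 RPKM in lung metastases, against 285 and 77.4 RPKM in the primary tumours of the same animals, with no test made. Healthy lung held 11.1 to 17.5 RPKM of Srebf1 (n = 4), below every PyMT primary tumour. After subtraction of the estimated lung share the 10-model difference was -0.61 (adjusted p = 0.0015 by limma).

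Scd2 fell to 85.6 ± 32.1 RPKM in metastases, against 104 ± 39.4 RPKM in primary tumours (log2 difference -0.26 ± 0.06, adjusted p = 0.00682 by limma), with lower means in 9 of 10 models. Thrsp averaged 139.7 ± 208 RPKM in metastases and 138 ± 151 RPKM in primary tumours, with higher means in 5 of 10 models and an adjusted p of 0.277 by limma. Within single models Thrsp was high enough to be tested in 6, and its mean was higher in 3 of these. Of the other genes of the pathway, 32 were tested, of which 10 rose and 4 fell. Npc2, the lysosomal cholesterol transfer protein, rose to 201 RPKM in metastases, against 114 RPKM in primary tumours. The fatty acid elongase genes Elovl1 and Elovl5 rose to 63.3 and 35.4 RPKM in metastases, against 34.1 and 24.6 RPKM in primary tumours, and Scap, the SREBP escort, fell to 7.93 RPKM in metastases, against 9.82 RPKM in primary tumours.

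Leaving out 1 model at a time, or PyMT FVB replicate 6, left between 12 and 17 of the 29 genes past the threshold. The lung, adipocyte, fibroblast and macrophage marker sums given above moved with this comparison, and their part in it was not tested beyond the subtraction of the lung share.

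**Figure D2:**
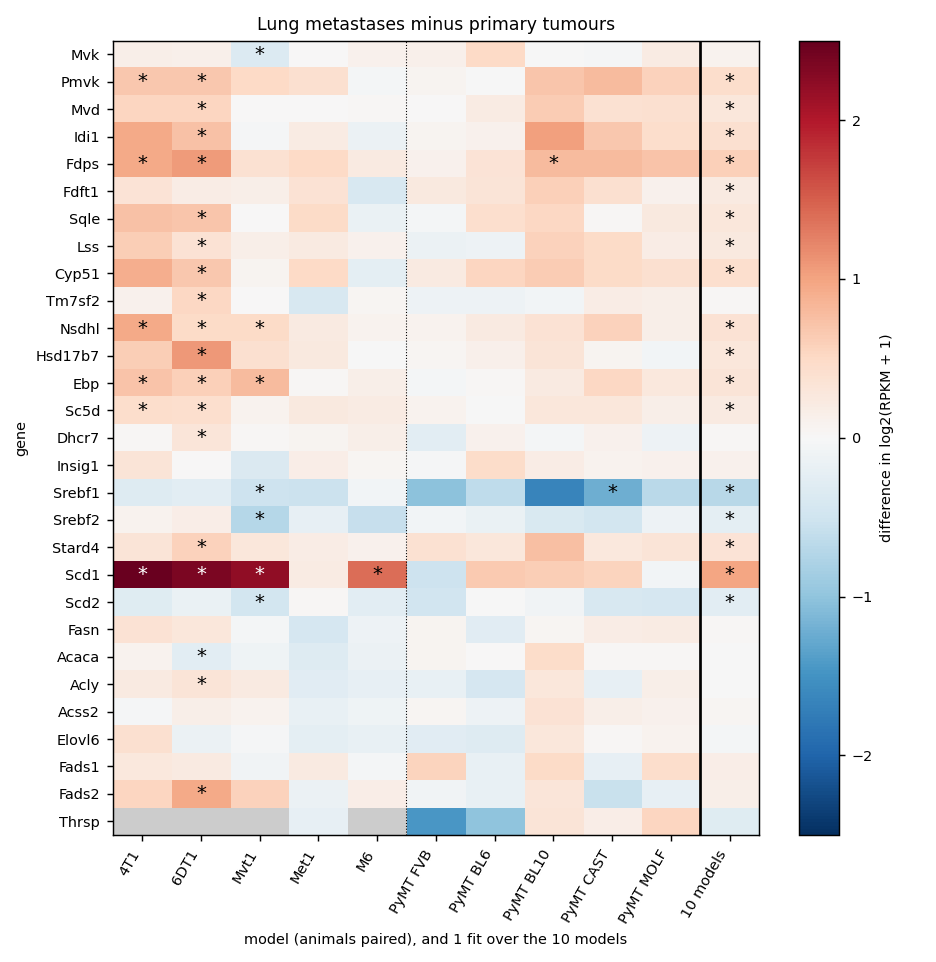
Difference in log2(RPKM + 1) between lung metastases and primary tumours of the same animals for each gene (rows) in each of 10 models and in 1 fit over all 10 (columns), where an asterisk marks an adjusted p under 0.05 by limma and grey a gene not tested. The sterol rows are mostly red in 4T1, 6DT1, PyMT BL10 and PyMT CAST, Srebf1 is blue in every column, and Scd1 is red in 4T1, 6DT1, Mvt1 and M6.

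Single models differed in how many genes passed. In 4T1, 6 of 28 genes rose and none fell, where 12.1% of all genes passed (7.36% higher, 4.75% lower). In 6DT1, 17 rose and 1 fell of 28, where 34.4% of all genes passed (19.4% higher, 15% lower). In Mvt1, 3 rose and 4 fell of 28, where 29% of all genes passed (11.2% higher, 17.8% lower), and after rescaling by the median ratio 3 rose and 2 fell. In M6, 1 of 28 rose where 4.71% of all genes passed (3.65% higher, 1.06% lower). In Met1 none of 29 passed by limma, where 0.317% of all genes did (0.263% higher, 0.0544% lower), and 2 had an unadjusted p under 0.05.

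In 4T1, Nsdhl had its lowest, median and highest levels at 7.67, 9.94 and 11.9 RPKM in metastases, against 3.95, 4.57 and 5.49 RPKM in primary tumours. No tumour reached the lowest metastasis, and the log2 difference was 0.96 ± 0.15 (adjusted p = 0.0075 by limma, n = 6 pairs). Ebp, Fdps, Pmvk and Sc5d were higher in all 6 pairs as well, by 0.71, 0.95, 0.66 and 0.44 (adjusted p = 0.0146, 0.0316, 0.0376 and 0.0456 by limma). Idi1 had 24.7 ± 6.201 RPKM in metastases and 13.8 ± 8.29 RPKM in primary tumours and did not pass (adjusted p = 0.0791). With no filter on low values 3 of these 4T1 calls remained past the threshold, which were those of Scd1, Nsdhl and Ebp. The call of Pmvk was also lost after subtraction of the lung share (adjusted p = 0.0609 by limma), and that of Sc5d after rescaling (0.0543).

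In 6DT1, Hsd17b7 had 4.502, 5.94 and 8.69 RPKM as lowest, median and highest in metastases, against 1.61, 2.51 and 3.02 RPKM in primary tumours. The groups did not overlap, and the log2 difference was 1.08 ± 0.13 (adjusted p = 0.00074 by limma, n = 6 pairs). Pmvk, Ebp and Tm7sf2 were higher in all 6 pairs without overlap too, by 0.68, 0.60 and 0.51 (adjusted p = 0.00223, 0.00312 and 0.00352 by limma). Healthy lung held 16.7 to 26.3 RPKM of Pmvk, against 6.85 to 8.94 RPKM in 6DT1 primary tumours. For Ebp these were 20.2 to 23.2 RPKM in healthy lung and 12.3 to 21.1 RPKM in the tumours. Sqle, Fdps and Cyp51 rose by 0.70, 1.06 and 0.67 (adjusted p = 0.00507, 0.00507 and 0.00793 by limma), with overlap. Fads2, the delta-6 desaturase of polyunsaturated fatty acids, had 3.68 ± 1.07 RPKM in metastases and 1.42 ± 0.439 RPKM in primary tumours, and its difference of 0.95 was 0.34 (adjusted p = 0.211) once the estimated lung share was subtracted. Healthy lung held 5.81 to 11.4 RPKM of Fads2.

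In Mvt1 the SREBP genes and Scd2 fell while Ebp and Nsdhl rose. Srebf2 had 7.85, 9.18 and 11.1 RPKM as lowest, median and highest in metastases, against 12.3, 15.9 and 18.5 RPKM in primary tumours. It was lower in all 6 pairs, without overlap (log2 difference -0.72 ± 0.07, adjusted p = 0.00227 by limma). Scd2 fell to 74.5 ± 11.2 RPKM in metastases, against 103 ± 11.1 RPKM in primary tumours, also without overlap. Ebp rose by 0.80 and Nsdhl by 0.48, while Mvk and Srebf1 fell by 0.35 and 0.52 on the log2 scale (adjusted p = 0.0415 and 0.046). The calls of Mvk and Srebf1 were lost after rescaling (adjusted p = 0.0625 and 0.0691). Subtraction of the lung share gave 4 genes higher and 7 lower, where 3593 of all genes passed, against 3172 before it.

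Scd1 was the fatty acid gene with the widest mean shifts in 4T1, 6DT1, Mvt1 and M6, and in Met1 its shift was 0.21. In 4T1 it ran from 48.6 through a median of 92.4 to 250.4 RPKM in metastases, against 5.72 through 14.1 to 48.1 RPKM in primary tumours (log2 difference 2.46 ± 0.21, adjusted p = 0.000373 by limma). In Mvt1 it ran from 34.9 through 119.6 to 193 RPKM in metastases, against 8.49 through 25.3 to 45.3 RPKM in primary tumours (2.21 ± 0.24, adjusted p = 0.0026 by limma). In M6 it ran from 31.7 through 77.5 to 137 RPKM in metastases, against 9.98 through 27.9 to 61.8 RPKM in primary tumours (1.40 ± 0.32, adjusted p = 0.0497 by limma). The 4T1 groups did not overlap, and the Mvt1 and M6 groups did.

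The M6 call of Scd1 was lost under 5 of the alternatives tried, among them no filter (adjusted p = 0.0734) and subtraction of the lung share (0.13). Healthy lung held 101 to 185 RPKM of Scd1 (n = 4), above every 4T1, Mvt1 and M6 primary tumour. With the lung share subtracted the difference was 2.40 in 4T1 and 2.20 in Mvt1. In 6DT1, named here after its values were seen, Scd1 rose too, to 129 ± 42.5 RPKM in metastases, against 44.3 ± 71.7 RPKM in primary tumours, of which animal 0 held 191 RPKM.

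In the transgenic models fewer genes passed. PyMT BL10 had 1 of 29 higher, where 2.56% of all genes passed (0.973% higher, 1.59% lower), and that gene was Fdps, with 51.1 ± 8.43 RPKM in metastases and 29.8 ± 8.88 RPKM in primary tumours (log2 difference 0.79 ± 0.15, adjusted p = 0.0376 by limma, higher in 6 of 6 pairs). PyMT CAST had 1 of 29 lower, where 4.51% of all genes passed (1.31% higher, 3.2% lower), and that gene was Srebf1 (-1.22 ± 0.23, adjusted p = 0.0238 by limma, lower in 6 of 7 pairs). The BL10 call was lost with no filter (adjusted p = 0.0837). After rescaling CAST had 2 genes higher and 1 lower, where 327 of all genes passed. With the lung share subtracted CAST had 3 higher and 1 lower, where 726 of all genes passed, against 505 in the main fit. In the other strains none of the 29 genes passed by limma. In PyMT FVB 1.27% of all genes passed (0.849% higher, 0.424% lower), in PyMT BL6 0.651% (0.392% higher, 0.259% lower) and in PyMT MOLF 1.1% (0.616% higher, 0.48% lower). Of the 29 genes, 6 in PyMT FVB, 5 in PyMT BL6 and 7 in PyMT MOLF had an unadjusted p under 0.05. Of all genes, 2006 of 11075 in PyMT FVB, 1490 of 11214 in PyMT BL6 and 1082 of 11033 in PyMT MOLF did. None of the 29 genes passed in PyMT FVB without replicate 6 either.

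Some values that missed the threshold in these strains were of similar size, and others were smaller. The mean log2 difference of Fdps was 0.12 in PyMT FVB (higher in 6 of 12 pairs) and 0.33 in PyMT BL6 (4 of 5). That of Srebf1 was -0.63 in PyMT BL6 (lower in 4 of 5 pairs). Srebf1 averaged 81.7 ± 49.0 RPKM in PyMT FVB metastases and 141 ± 40.1 RPKM in the paired tumours (adjusted p = 0.0646, lower in 11 of 12 pairs). In PyMT MOLF it averaged 67.0 ± 17.8 RPKM in metastases and 109 ± 33.2 RPKM in tumours (adjusted p = 0.0725, lower in 8 of 8 pairs). Fdps in PyMT MOLF averaged 89.1 ± 28.3 RPKM in metastases and 55.8 ± 24.7 RPKM in tumours (adjusted p = 0.0811, higher in 7 of 8 pairs). Thrsp in PyMT FVB averaged 119 ± 73.4 RPKM in metastases and 293 ± 194 RPKM in tumours (adjusted p = 0.218). These models each had 5 to 12 pairs, and a p above the threshold does not show that the tissues were alike.

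Whether the shift itself differed between the 5 transgenic models, all PyMT, and the 5 allograft models was tested on the 10 model differences. None of the 29 genes passed by limma, where 0.653% of all genes did (0.0743% higher, 0.578% lower). An unadjusted p under 0.05 was found for 4 of the 29 and for 1690 of all 12106 genes. The Scd1 shift was 0.25 ± 0.52 in transgenic models and 1.73 ± 0.95 in allograft models (SD, n = 5 each, log2, adjusted p = 0.137). Without Met1, the Scd1 difference of -1.86 passed (adjusted p = 0.00816 by limma). The Srebf1 shift was -1.04 ± 0.42 in transgenic models and -0.34 ± 0.20 in allograft models (adjusted p = 0.127).

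The next comparison set the primary tumours of 8 transgenic models against those of 14 injected lines. PyMT on FVB, BL6, BL10, CAST and MOLF counted as separate models, so the units were not all independent. Driver and host strain also differed between transgenic models and lines, and their part in the differences was not tested. Thrsp, Fads2, Scd1 and Acly among the 10 fatty acid genes were higher in transgenic tumours, and the other 6 did not pass. Thrsp averaged 178 ± 141 RPKM over transgenic models and 8.75 ± 22.7 RPKM over lines (SD over model levels as defined above, n = 8 and 14), and Srebf1 averaged 105 ± 57.5 RPKM over transgenic models and 17.9 ± 22.9 RPKM over lines. Of the 29 genes, 9 were higher and 2 lower by limma, where 40.1% of all genes passed, 22% higher and 18.1% lower. The median difference was 0.27 over the 29 genes and 0.02 over all genes. The genes that passed were Thrsp, Srebf1, Tm7sf2, Pmvk, Fads2, Scd1, Acly, Dhcr7 and Idi1, all higher, and Hsd17b7 and Mvk, both lower. Of the other genes of the pathway, 12 of 32 were higher and 3 lower.

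Thrsp was at 15.2 RPKM or more in every PyMT, Neu and Myc tumour. Its lowest, median and highest levels were 34.4, 285 and 631 RPKM in PyMT FVB tumours, 52.8, 119.8 and 310.4 RPKM in Myc tumours, and 1.39, 1.82 and 53.5 RPKM in the 3 C3Tag tumours. In 9 lines the group mean was at most 1.48 RPKM. Met1, the line derived from PyMT, was high in every tumour, with 46.8, 64.7 and 226 RPKM as lowest, median and highest. The HRM1 tumours held 0.375, 7.94, 32.7 and 414 RPKM and the F311 tumours 0.536, 2.53, 16.4 and 97.1 RPKM, so single tumours of these lines reached far above the 9 low lines and others did not. The log2 difference was 5.14 ± 0.77 (adjusted p = 2.42e-05 by limma).

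Srebf1 varied over a smaller range. It ran from 82.4 to 247 RPKM in PyMT FVB tumours, from 14.5 to 46.7 RPKM in Myc tumours and from 16.5 to 21.4 RPKM in C3Tag tumours. The lines other than Met1 had group means between 7.95 and 16.6 RPKM, and Met1 averaged 106 ± 53.1 RPKM (n = 7). Thus the C3Tag and Myc means lay above those lines and below the PyMT, Neu and Met1 means, and the C3Tag tumours overlapped the highest tumours of several lines. The log2 difference was 2.54 ± 0.41 (adjusted p = 4.78e-05 by limma).

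Scd1 averaged 129 ± 56.6 RPKM in transgenic models and 51.3 ± 49.0 RPKM in lines (log2 difference 1.62 ± 0.44, adjusted p = 0.00549 by limma). Single HRM1 tumours ran from 12.2 to 1285 RPKM of Scd1 and single F311 tumours from 16.7 to 778 RPKM. Fads2 averaged 16.7 ± 7.48 RPKM in transgenic models and 6.67 ± 6.21 RPKM in lines (1.41 ± 0.36, adjusted p = 0.00358 by limma). Acly, the ATP citrate lyase that supplies acetyl-CoA, averaged 43.2 ± 12.2 RPKM in transgenic models and 28.4 ± 8.41 RPKM in lines (0.58 ± 0.17, adjusted p = 0.00932 by limma).

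Sterol genes were divided. Pmvk, Tm7sf2 and Dhcr7, the reductase of the last step, were higher in transgenic tumours by 0.90, 0.64 and 0.99 (adjusted p = 0.00162, 0.00119 and 0.0171 by limma). Lss averaged 6.11 ± 2.00 RPKM in transgenic models and 4.41 ± 2.17 RPKM in lines and did not pass (adjusted p = 0.0954). In all, 4 sterol genes were higher, 2 lower and 9 not past the threshold.

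Milk protein RNA moved with this comparison, with a median sum of 6 genes of 8925 RPKM in transgenic tumours and 5.48 RPKM in allograft tumours. The adipocyte sum had medians of 46.6 RPKM in transgenic tumours and 73.4 RPKM in allograft tumours, and it reached 5245 RPKM in an allograft tumour. Without HRM1 and F311, 9 genes were higher and none lower. Macrophage sums had medians of 32.7 RPKM in transgenic tumours and 116 RPKM in allograft tumours, epithelial sums 1282 RPKM in transgenic tumours and 586 RPKM in allograft tumours, and sums of 4 alveolar type 1 markers 227 RPKM in transgenic tumours and 17.7 RPKM in allograft tumours. The part of these cells in the differences was not tested.

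**Figure D3:**
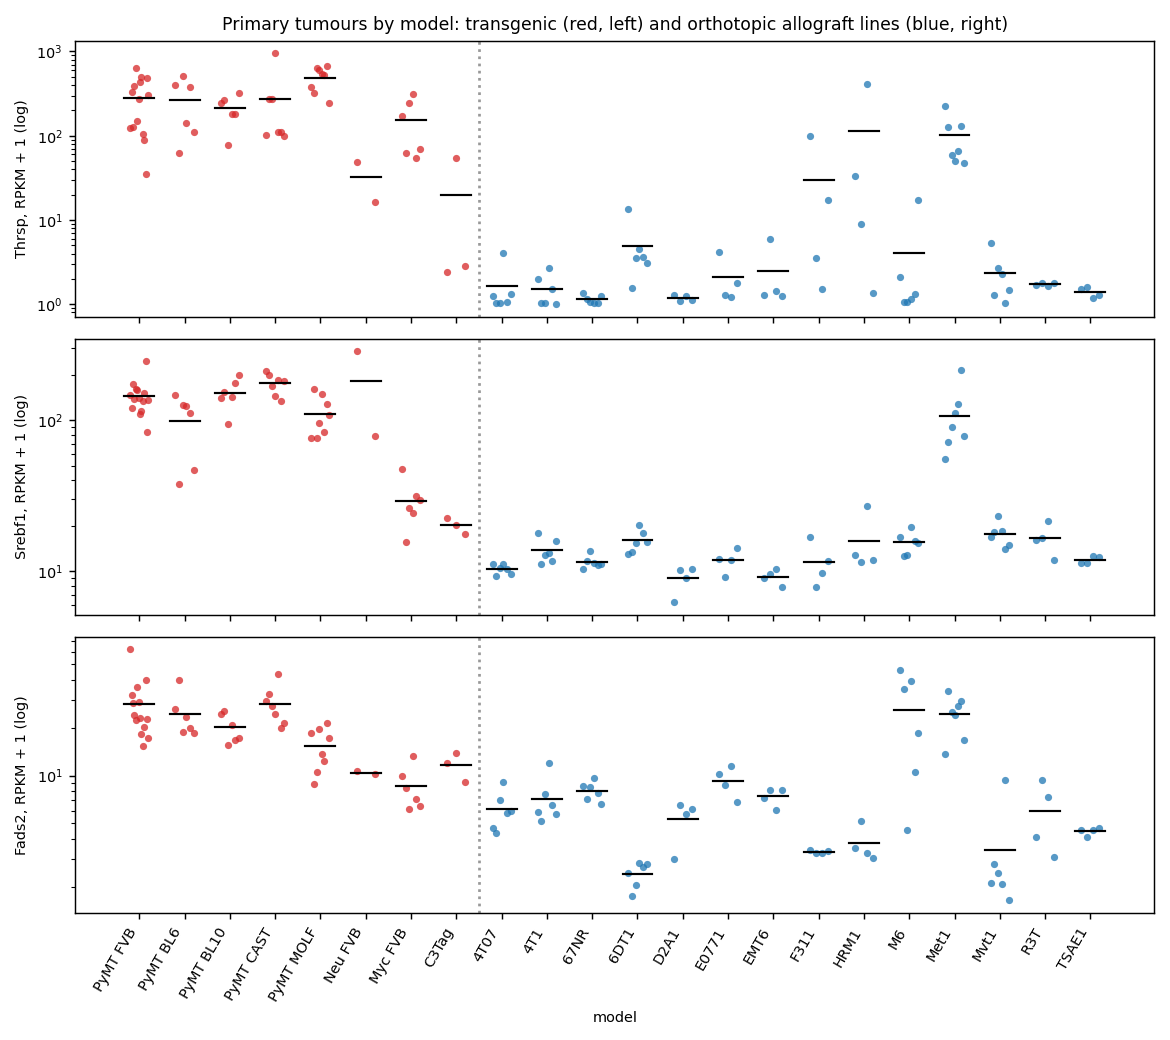
Thrsp, Srebf1 and Fads2 in single primary tumours (points, RPKM + 1 on a log axis) with the group mean as a line, transgenic models in red on the left and injected lines in blue on the right. Met1 lies with the PyMT models in all 3 panels, and the C3Tag tumours lie with the lines for Srebf1.

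Strain background was compared among PyMT primary tumours, each strain against the same 14 FVB tumours, so the 4 comparisons share that side. In MOLF, 2 of 29 genes were higher and 10 lower by limma, where 40.7% of all genes passed, 14.2% higher and 26.5% lower. After rescaling 3 were higher and 6 lower. Srebf2 ran from 5.02 through a median of 10.3 to 13.1 RPKM in MOLF tumours, against 10.2 through 18.8 to 25.2 RPKM in FVB tumours (log2 difference -0.81 ± 0.14, adjusted p = 1.97e-05 by limma). Stard4 ran from 0.641 through 2.64 to 4.02 RPKM in MOLF tumours, against 2.496 through 6.35 to 11.3 RPKM in FVB tumours (-1.10 ± 0.19, adjusted p = 2.34e-05 by limma). Every MOLF tumour lay below the FVB median for both genes, and the groups overlapped.

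Scd2, Lss, Fads2, Fads1 and Idi1 were lower in MOLF tumours too, with log2 differences of -0.97, -0.79, -0.83, -0.77 and -0.81 (adjusted p between 0.000137 and 0.0321 by limma). The call of Idi1 was lost after rescaling (adjusted p = 0.0632). Fdft1 was higher, with 14.2 ± 3.23 RPKM in MOLF tumours and 10.9 ± 2.20 RPKM in FVB tumours (0.35 ± 0.11, adjusted p = 0.012 by limma). The other gene higher in MOLF was Thrsp, with 489 ± 158 RPKM against 282 ± 184 RPKM in FVB tumours.

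In BL10, 4 of 29 genes were lower and none higher, where 7.36% of all genes passed (4.76% higher, 2.6% lower). They were Lss (5.59 ± 1.95 RPKM in BL10 tumours and 10.2 ± 3.43 RPKM in FVB tumours), Acaca, Mvd and Sqle, with log2 differences of -0.75, -0.60, -0.64 and -0.57. With no filter on low values the calls of Mvd and Sqle were lost. In CAST, 2 of 29 were lower, where 10.9% of all genes passed (6.76% higher, 4.12% lower). Stard4 averaged 3.48 ± 1.06 RPKM in CAST tumours and 6.61 ± 2.37 RPKM in FVB tumours (-0.73 ± 0.20, adjusted p = 0.0142 by limma), and Lss averaged 6.53 ± 1.33 RPKM in CAST tumours and 10.2 ± 3.43 RPKM in FVB tumours.

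In BL6, 1 gene was higher and 1 lower, where 8.23% of all genes passed (3.64% higher, 4.59% lower). Sc5d averaged 16.9 ± 5.74 RPKM in BL6 tumours and 10.8 ± 2.54 RPKM in FVB tumours (adjusted p = 0.0171 by limma), and Srebf1 averaged 98.2 ± 45.6 RPKM in BL6 tumours and 143 ± 37.9 RPKM in FVB tumours (adjusted p = 0.0469 by limma). Neither passed without BL6 tumour replicate 6, which is titled BL6N (adjusted p = 0.0948 and 0.191).

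Oncogenic drivers on FVB were compared with the same PyMT tumours. In Myc tumours 1 of 29 genes was higher and 17 lower by limma, where 62.3% of all genes passed, 21.2% higher and 41.1% lower. The median of all genes was -0.21, so that the median of the 29 genes, -0.58, was -0.37 relative to it. Srebf1 ran from 14.5 through 27.0 to 46.7 RPKM in Myc tumours, against 82.4 through 139 to 247 RPKM in PyMT tumours (log2 difference -2.34 ± 0.19, adjusted p = 1.29e-09 by limma). Scd2 ran from 57.3 through 79.7 to 99.7 RPKM in Myc tumours, against 105 through 171 to 269 RPKM in PyMT tumours (-1.15 ± 0.18, adjusted p = 1.07e-05 by limma). For both genes every Myc tumour lay below every PyMT tumour.

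Fads2 was also lower without overlap, with 7.54 ± 2.71 RPKM in Myc tumours and 27.0 ± 12.2 RPKM in PyMT tumours. Lss, Srebf2, Fads1 and Tm7sf2 were lower with overlap, with log2 differences of -1.05, -0.84, -1.22 and -0.71. Fdft1 was the gene that was higher, with 17.5 ± 3.75 RPKM in Myc tumours and 10.9 ± 2.20 RPKM in PyMT tumours (0.64 ± 0.13, adjusted p = 0.000262 by limma). Thrsp averaged 151 ± 108 RPKM in Myc tumours and 282 ± 184 RPKM in PyMT tumours and did not pass (adjusted p = 0.242).

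In C3Tag tumours 2 of 29 genes were higher and 10 lower, where 47.5% of all genes passed, 31.9% higher and 15.6% lower. The median of all genes was 0.18, and the median of the 29 genes, -0.39, was -0.57 relative to it. Scd2 held 22.7, 36.6 and 38.8 RPKM in the 3 C3Tag tumours, against 105 to 269 RPKM in PyMT tumours (log2 difference -2.38 ± 0.24, adjusted p = 4.49e-08 by limma). Srebf1 held 16.5, 19.3 and 21.4 RPKM in C3Tag tumours, against 82.4 to 247 RPKM in PyMT tumours (-2.81 ± 0.24, adjusted p = 4.55e-09 by limma). Neither gene overlapped between the groups.

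Thrsp held 1.39, 1.82 and 53.5 RPKM in C3Tag tumours, against 34.4 to 631 RPKM in PyMT tumours, so 1 of the 3 lay within the PyMT range (-4.92 ± 0.81, adjusted p = 3.68e-05 by limma). Fdft1 held 20.8, 21.0 and 24.1 RPKM in C3Tag tumours, against 6.96 to 14.2 RPKM in PyMT tumours (0.97 ± 0.17, adjusted p = 8.97e-05 by limma). Lss, Dhcr7, Fads2 and Acss2, which makes acetyl-CoA from acetate, were lower, with log2 differences of -1.18, -1.06, -1.17 and -1.35 (adjusted p between 0.000701 and 0.00258 by limma). With 1 tumour left out at a time, between 9 and 14 genes passed.

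Cultured cells of 7 lines were set beside the primary tumours that the lines formed. None of 28 genes was higher in tumours and 1 was lower by limma, where 21.7% of all genes passed (12.1% higher, 9.6% lower). Acaca averaged 5.34 ± 0.865 RPKM in tumours and 9.54 ± 4.02 RPKM in cells (SD over 7 lines, log2 difference -0.65 ± 0.19, adjusted p = 0.0372), lower in 6 of 7 lines. That call was lost when the 4T1, 4T07, 67NR, Met1 or M6 line was left out (adjusted p = 0.0585 to 0.0929), without the AS cultures (0.0717) and with no filter (0.0617). Scd2 averaged 75.3 ± 38.9 RPKM in tumours and 127 ± 51.2 RPKM in cells and did not pass (adjusted p = 0.0574). Without 4T07 the Scd2 difference of -1.12 passed (adjusted p = 0.0186 by limma). Over all lines, the fibroblast sum had a median of 275 RPKM in allograft tumours and 1.13 RPKM in cultured cells, the macrophage sum 116 RPKM in tumours and 5.04 RPKM in cells, and the adipocyte sum 73.4 RPKM in tumours and 0.324 RPKM in cells. The sum of 5 cell division markers had a median of 146 RPKM in tumours and 214 RPKM in cells. The part of these in the comparison was not tested.

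Some genes were low in the cultures of single lines. Fads1 held 0.00933, 0.0167, 0.0617 and 0.163 RPKM in 4T07 cells, whereas 4T07 tumours held 3.55 to 6.79 RPKM (n = 6). Fads2 averaged 0.508 RPKM in 6DT1 cells and 0.575 RPKM in Mvt1 cells (n = 3 each). Thrsp held 1.55, 2.499 and 2.51 RPKM in Met1 cells, whereas Met1 tumours held 46.8 to 226 RPKM. For Fads1 in 4T07 and Thrsp in Met1 the tumours did not overlap the cells, and no test was made of a single line.

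Cultures of 4T1, 67NR and 4T07 were named AS in 2 samples and isolation in 2 others of each line, and the labels do not say how these sets differ. In 4T1 cells all 15 sterol genes were higher in both AS cultures than in both isolation cultures, where 35.7% of all genes were. Idi1 held 87.1 and 85.7 RPKM in 4T1 AS cultures, against 3.92 and 4.64 RPKM in 4T1 isolation cultures. Cyp51 held 40.1 and 40.2 RPKM in the AS cultures, against 5.39 and 4.88 RPKM in the isolation cultures. The median of the 15 sterol genes was 1.61 on the log2 scale and that of all genes -0.15.

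In 67NR cells the order was turned round, with 14 of the 15 sterol genes lower in both AS cultures, where 53.6% of all genes were lower. Idi1 held 4.06 and 3.50 RPKM in 67NR AS cultures, against 39.1 and 35.9 RPKM in 67NR isolation cultures. In 4T07 cells 12 of 15 were lower, where 47.2% of all genes were lower, and Idi1 held 4.51 and 4.26 RPKM in AS cultures, against 12.2 and 8.65 RPKM in isolation cultures. With 2 cultures a side these are values without a test, and the separation covered most genes of the table. The AS mean of Idi1 in 4T1 was 20.2 times the isolation mean, and in 67NR the isolation mean was 9.91 times the AS mean.

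**Figure D4:**
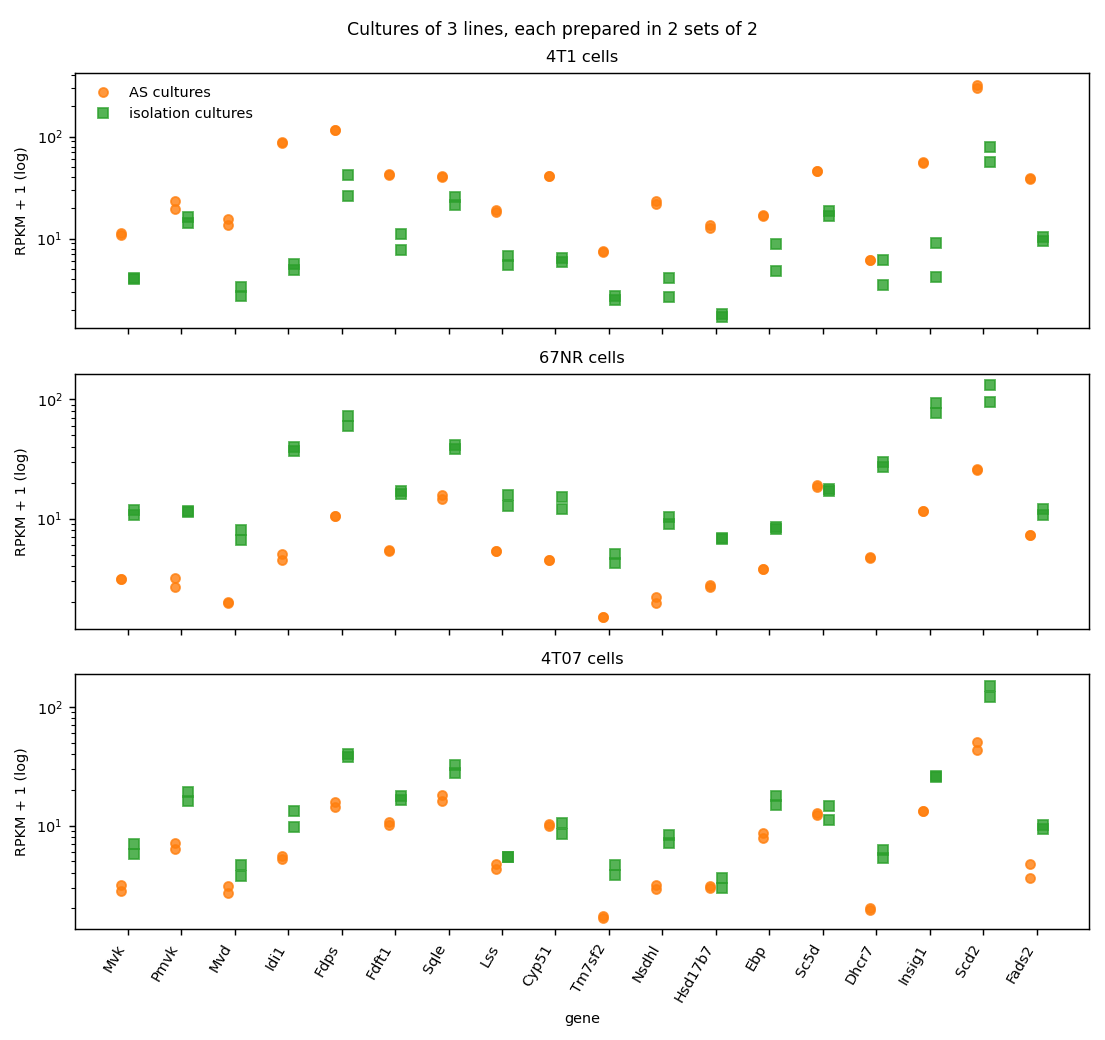
RPKM + 1 on a log axis for the 15 sterol genes, Insig1, Scd2 and Fads2 in cultures of 4T1, 67NR and 4T07, with AS cultures as orange circles and isolation cultures as green squares. The AS cultures lie above the isolation cultures in 4T1 and below them for most genes in 67NR and 4T07.

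Liver metastases of M6 cells injected into the heart were compared with the liver beside them in 5 animals. The 2 tissues differed in nearly every gene, with 93.2% of all genes past the threshold by limma (81.9% higher, 11.3% lower) and a median difference of 1.35 over all genes. Of the 29 genes, 11 were higher and 11 lower, and after rescaling by the median ratio 1 was higher and 27 were lower. The shares of all genes given here are for the values as deposited. No share of all genes is given after rescaling, so the count of 27 cannot be set against one. That rescaling was set over all samples of the series and not on the median of this comparison. It lowered Srebf2, Sqle, Idi1 and Fdps by more than 1.35. The median of the 29 genes was 0.08, or -1.27 relative to all genes.

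Scd2 held 50.3, 49.6, 64.7, 37.3 and 64.8 RPKM in the metastases, against 1.25, 0.725, 0.756, 0.776 and 0.849 RPKM in the liver of the same 5 animals. It was the gene that stayed higher after rescaling, and the log2 difference was 4.84 ± 0.15 (adjusted p = 3.54e-24 by limma). Thrsp held 55.3, 58.6, 79.7, 26.3 and 61.8 RPKM in the metastases, against 265, 338, 450.1, 183 and 180.04 RPKM in the liver (-2.30 ± 0.17, adjusted p = 2.43e-14 by limma). The groups did not overlap for either gene.

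Sc5d, Insig1, Acss2 and Tm7sf2 were lower in metastases, with log2 differences of -1.27, -1.16, -1.09 and -1.08. Srebf2 rose by 1.57 and Sqle by 1.15 as deposited, but after rescaling both were lower (-0.13, adjusted p = 0.249, and -0.60, adjusted p = 0.0401). Fdps averaged 40.0 ± 9.14 RPKM in metastases and 38.8 ± 12.7 RPKM in liver. Idi1 averaged 22.8 ± 3.81 RPKM in metastases and 20.9 ± 4.55 RPKM in liver, and Fads2 45.4 ± 5.08 RPKM in metastases and 49.6 ± 12.8 RPKM in liver. None of these 3 passed as deposited. With 1 animal left out at a time, between 16 and 21 of the 29 genes passed.

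The liver beside the metastases was compared with liver of 4 mice without a tumour. None of 28 genes passed by limma, where 1.96% of all genes did (0.799% higher, 1.16% lower). An unadjusted p under 0.05 was found for 6 of the 28 and for 910 of all 8383 genes. Insig1 held 70.2 to 93.7 RPKM in adjacent liver (n = 5), against 29.3, 38.6, 47.9 and 96.6 RPKM in healthy liver (adjusted p = 0.123). Scd1 averaged 376 ± 140 RPKM in adjacent liver and 241 ± 144 RPKM in healthy liver (adjusted p = 0.27). Single healthy livers decided these values, since Insig1 passed without healthy liver replicate 4 (adjusted p = 0.0294) and Scd1 without healthy liver replicate 3 (0.0176), and between 0 and 2 genes passed over all such omissions.

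**Figure D5:**
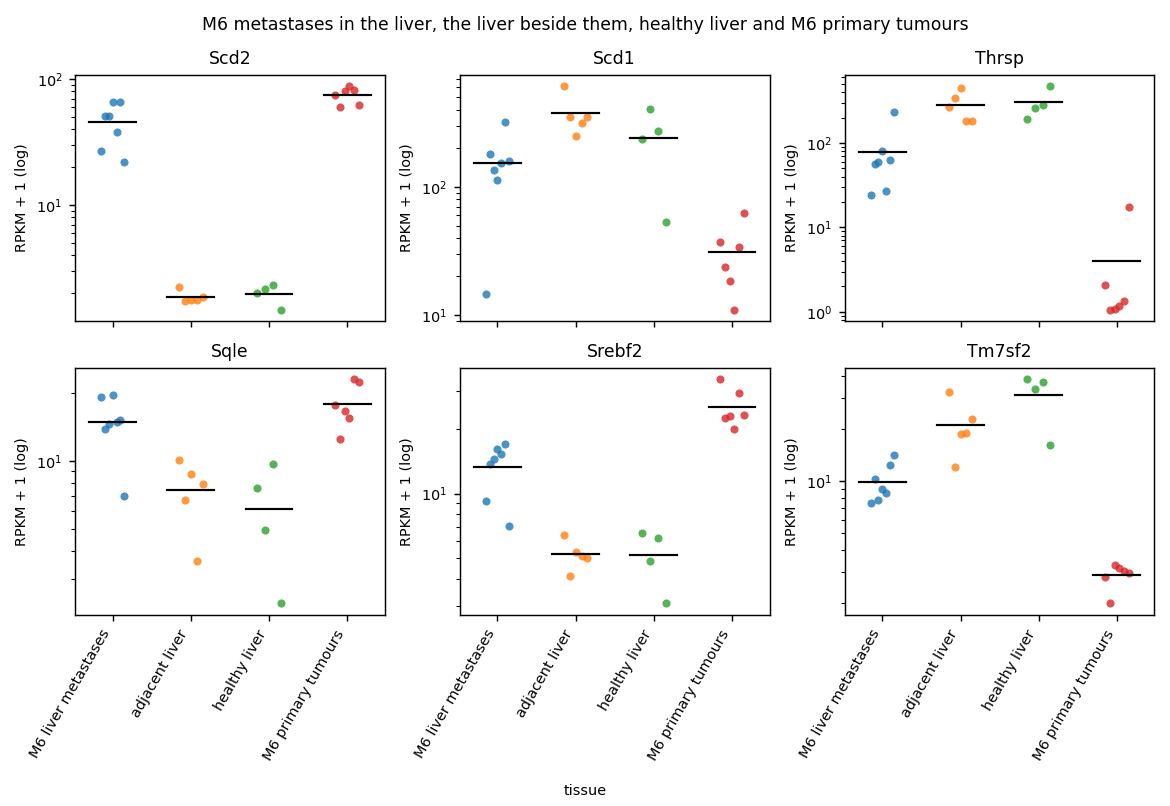
Scd2, Scd1, Thrsp, Sqle, Srebf2 and Tm7sf2 in single animals (points, RPKM + 1 on a log axis) with the mean as a line, for all 7 animals with M6 liver metastases after injection into the heart, the liver beside them in 5 of these, healthy liver and M6 primary tumours. Scd2 is near 1 RPKM in both kinds of liver and far higher in metastases and primary tumours, and Thrsp is high in liver and low in most M6 primary tumours.

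Met1 tumours that had been resected were compared with the final tumours of the same 4 animals. None of 29 genes passed by limma, where 0% of all genes did, and 5 of the 29 and 904 of all genes had an unadjusted p under 0.05. Scd2 held 4.34, 4.05, 4.31 and 2.56 RPKM in the resected tumours, against 43.2, 3.31, 13.1 and 6.40 RPKM in the final tumours of the same animals. Fasn held 20.5, 28.2, 25.5 and 14.4 RPKM in the resected tumours, against 112, 32.2, 37.1 and 29.8 RPKM in the final tumours. Fasn was lower in 4 of 4 animals and Scd2 in 3 of 4, with adjusted p-values of 0.541 each.

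The route of injection was compared in lung metastases of 2 lines. In 4T1, 1 of 28 genes was higher and 1 lower after tail vein injection by limma, where 5.75% of all genes passed (3.87% higher, 1.88% lower), and after rescaling 1 was higher and none lower. Stard4 held 9.25, 11.8 and 13.2 RPKM as lowest, median and highest after tail vein injection, against 5.29, 6.16 and 8.99 RPKM after mammary injection (log2 difference 0.69 ± 0.13, adjusted p = 0.0168 by limma). Scd1 held 28.3, 41.7 and 50.6 RPKM after tail vein injection, against 48.6, 92.4 and 250.4 RPKM after mammary injection (-1.23 ± 0.33, adjusted p = 0.0479 by limma). Stard4 did not overlap between routes, and Scd1 overlapped at its edge.

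In Mvt1 none of 28 genes passed by limma, where 4.25% of all genes did (3.98% higher, 0.262% lower). An unadjusted p under 0.05 was found for 4 of the 28 and for 2263 of all 11068 genes. Elovl6, the elongase of saturated fatty acids, averaged 11.1 ± 1.08 RPKM after tail vein injection and 8.33 ± 1.56 RPKM after mammary injection (n = 6 each, log2 difference 0.39 ± 0.11, adjusted p = 0.0572). The titles of the Mvt1 tail vein samples begin with Met1, and their cell line entry and sample name, Mvt1, were followed.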

How the data were processed

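RNA of snap-frozen mouse tissue or cultured cells was sequenced in 335 libraries. The deposited values are RPKM per gene, made by the authors from their reads, and per the submitters' processing notes TopHat, DESeq2 and the mouse build mm9 were used, with versions and the counting tool not given in the sources used here. RPKM is relative to a library's total, so a large change in a few genes moves all others. Whole reads were recovered from the RPKM steps of 18448 genes (100% of values within 0.0001 reads) and served to give the depth, 8106344 to 54906212 reads, at which 1 RPKM was at least 12.1 reads for the shortest of the genes studied.

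Libraries of the same tissue of an animal were averaged. Tests used limma 3.58.1 under R 4.3.3 (empirical Bayes with trend and robust options) on log2(RPKM + 1), which understates changes of low genes, for genes at 1 RPKM or more in as many profiles as the smaller group holds, with Benjamini-Hochberg adjustment over all genes and a threshold of 0.05. Tissues of the same animal, named in the labels, were blocked by animal. In these pairs the median correlation of deviations ran from -0.0324 to 0.385. Models or lines were the units where several were combined, although the PyMT models share a transgene and are related in that respect. Where the labels do not state separate animals or cultures, p-values measure the spread between samples. Each comparison names up to 8 genes that passed, smallest p first, and up to 4 that did not. Alternatives were a pseudocount of 0.1, no filter, median-ratio rescaling, other blocking, omission of animals or models and subtraction of an estimated lung share. The genes and lists were chosen with earlier results of these data known. Python 3.11.15 with pandas 2.3.3, numpy 2.4.6, scipy 1.17.1 and matplotlib 3.10.9 made the summaries, and the fits were tested on simulated data.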

Additional observations from a re-analysis of the deposited data

Results flagged for a closer look

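Among 312 combinations of a group of 4 to 10 animals and a measure (8 measures), 30 had an animal whose gap to the nearest other exceeded Dixon's 95% critical value, where chance alone gives about 1 in 20. Values are log2(RPKM + 1), followed by the range of the other animals of the group. Samples are named by replicate or by the animal in their label.

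For the mean over the sterol genes, PyMT MOLF lung metastases of 1 animal were high at 4.12 (others 3.77 to 3.93). For the mean over the fatty acid genes, Met1 tumour 1 was high at 5.53 (4.38 to 4.72), and PyMT CAST lung metastasis replicate 2 at 6.03 (4.68 to 5.11). M6 liver metastasis 1 was low at 3.59 (4.56 to 5.10), Mvt1 tumour 6 at 2.99 (3.34 to 3.48) and tumour-adjacent PyMT FVB lung replicate 3 at 3.93 (4.28 to 4.37).

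Some of the animals that stood apart for the fatty acid mean did so for Scd1, itself a gene of that mean. They were Met1 tumour 1 at 9.74 (6.33 to 7.33), PyMT CAST lung metastasis replicate 2 at 10.7 (6.31 to 8.09) and M6 liver metastasis 1 at 3.87 (6.82 to 8.33). Mvt1 tumour 6 and the tumour-adjacent PyMT FVB lung were not flagged for Scd1. The adipocyte gene Adipoq was at 79.9 RPKM in Met1 tumour 1, against at most 6.54 RPKM in the other Met1 tumours, and the milk gene Csn3 was at 34902 RPKM in that CAST metastasis, against at most 18652 RPKM in the others. Scd1 was also high in 6DT1 tumour 0 at 7.58 (3.73 to 4.30), where Adipoq was at 37.5 RPKM against at most 4.23 RPKM, and low in Met1 lung metastasis LW_1 at 6.03 (7.50 to 8.11). The part of fat or milk-producing cells in these values was not tested.

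Scd2 was high in 4T1 tumour 1 at 7.18 (6.46 to 6.70), 6DT1 lung metastasis 0 at 6.80 (6.13 to 6.37), EMT6 tumour PT5 at 6.73 (6.26 to 6.32), M6 adjacent liver replicate 5 at 1.17 (0.79 to 0.89) and healthy lung replicate 1 at 7.60 (7.15 to 7.18). It was low in 4T07 tumour 2 at 6.33 (6.92 to 7.08), 6DT1 tumour 0 at 5.66 (6.54 to 6.76) and resected Met1 tumour 13 at 1.83 (2.34 to 2.42).

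Thrsp was high in 4T07 tumour 7 at 2.03 (0.06 to 0.40), EMT6 tumour PT2 at 2.56 (0.33 to 0.53), M6 tumour replicate 6 at 4.12 (0.08 to 1.07), Mvt1 lung metastasis 1 at 3.72 (0.10 to 1.35) and tumour-adjacent PyMT FVB lung BL5Rf at 4.48 (1.60 to 2.40). Srebf1 was high in HRM1 tumour PT1-7 at 4.75 (3.52 to 3.67), where Adipoq was at 226 RPKM against at most 21.3 RPKM in the others.

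Fdps was high in 4T1 lung metastasis 9 at 5.92 (5.12 to 5.39), 67NR tumour 4 at 5.07 (4.10 to 4.39) and PyMT CAST tumour replicate 3 at 6.02 (4.76 to 5.24). Idi1 was high in Met1 lung metastasis 9 at 5.04 (3.41 to 4.02) and low in F311 tumour PT4 at 2.40 (3.70 to 3.89).

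Mvk differences had opposite signs between models. Lung metastases were above primary tumours in every pair of PyMT BL6 (mean log2 difference 0.49) and of PyMT MOLF (0.21), and below them in every pair of Mvt1 (-0.35). Only Mvt1 passed by limma (adjusted p = 0.0415, against 0.278 in PyMT BL6 and 0.66 in PyMT MOLF), and that call was lost with no filter (0.0541) and after rescaling (0.0625). The difference between these models was not tested.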

How the results depend on the processing

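Over 146 results (25 counts of genes past the threshold and 121 genes in single comparisons) 1329 settings were run. Of the single-gene settings without an omission 460 kept direction and side of the threshold, 26 lost the call, 5 gained it and 4 reversed, and of those with an omission 620 kept both, 7 lost it, 5 gained it and 3 reversed. The cause was not tested for any of them. With no filter the counts were 3 in 4T1, 0 in M6, 0 in PyMT BL10, 0 for tumours against cultured cells, 1 for BL6 and 2 for BL10 against FVB and 1 for the 4T1 routes. After rescaling they were 0 in M6, 3 in PyMT CAST, 1 for adjacent against healthy liver and 1 for the 4T1 routes. With a pseudocount of 0.1 M6 had 0. With the lung share subtracted they were 11 in Mvt1, 0 in M6, 4 in PyMT CAST and 1 in PyMT MOLF. The block by animal or line was used because the labels name the shared animal or line. With no replicate block the counts were 0 in M6, 4 in PyMT BL10, 3 in PyMT CAST and 0 for tumours against cultured cells. Of all genes, 559, 545, 484 and 859 passed there. The route groups share only replicate numbers. With a replicate block by number (correlations of -0.344 in 4T1 and -0.306 to 0.543 in Mvt1) 2 genes passed in 4T1 and 0 in Mvt1, as without it. Leaving out 1 animal, model or line gave 12 to 17 genes over the 10 models, 0 to 1 for the difference between transgenic and allograft shifts, 0 to 1 for tumours against cultured cells, 8 to 11 for transgenic against allograft tumours, 9 to 14 for C3Tag, 16 to 21 for M6 liver metastases, 0 to 2 for adjacent liver and 0 for BL6 against FVB without BL6 tumour replicate 6. Rescaling reversed Srebf2 (-0.13), Sqle (-0.60), Idi1 (-1.74) and Fdps (-1.81) in M6 liver metastases. Leaving out 1 animal there gave -0.0531 to 0.243 for Fdps, reversed without the animal of adjacent liver replicate 4 (-0.0531) or 1 (-0.00345), and -0.200 to 0.0253 for Fads2, reversed without replicate 1. Omitting the AS cultures, chosen after seeing the data like 7 other alternatives, gave 0 genes for tumours against cultured cells, where 1974 of all genes passed. Depth limits low genes such as Thrsp in cultures, Fads1 in 4T07 cells and Tm7sf2.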

Other observations

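Scd2 was listed over a wide range in Met1 samples and in the tissues beside them. The single Met1 brain metastasis held 226 RPKM, and the single M6 brain metastasis 209.7 RPKM. Met1 liver metastases held 28.6 and 0.746 RPKM, against 0.727 and 0.4999 RPKM in the liver beside them. Met1 spleen metastases held 84.4 and 17.7 RPKM, against 11.7 and 13.4 RPKM in the spleen beside them. The tail vein lung library held 74.8 RPKM. Lung metastases after mammary injection held 9.19, 11.9, 17.4, 20.3, 40.1 and 225 RPKM, and the primary tumours 3.31, 3.36, 6.40, 13.1, 43.2, 70.0 and 307 RPKM. Cultured Met1 cells held 89.6, 98.3 and 141 RPKM. These values enter no test of sites, because most sites had 1 or 2 samples.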
